A study of Mus musculus with 44 samples.

Results

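The 10 genes described here, which mark inhibitory interneurons, were measured in translating mRNA from the hippocampus of mice that had or had not exercised early in life. They were found among the 55335 genes of the deposited TRAP table by matching its Ensembl identifiers to the symbols Gad1, Gad2, Slc32a1, Sst, Pvalb, Vip, Dlx1, Dlx2, Dlx5 and Lhx6, and all 10 were present. TRAP (translating ribosome affinity purification) captures mRNA on tagged ribosomes. In Emx1-NuTRAP mice the tag is switched on by Cre driven from the Emx1 gene, in cells of the Emx1 lineage (mostly excitatory neurons, with some glia), and the male mice used here came from Emx1-Cre mothers and NuTRAP fathers and were killed on postnatal day 42. All 20 TRAP libraries carry both alleles and each came from 1 mouse. ELE (early-life exercise) mice had a running wheel from postnatal day 21 to 41, and sedentary mice had none. SIT (simultaneous isolation of nuclei and ribosomes, from both hippocampi of a mouse combined) gave 4 ELE and 4 sedentary libraries. Separate isolation from a single hemisphere gave 3 ELE and 3 sedentary libraries from the left hippocampus, and the same numbers from the right. The reference was bulk RNA of the left dorsal hippocampus of 24 wild-type C57Bl/6J mice. Their columns could not be matched to single samples, and as a group they mix no wheel with wheels on days 21 to 27, 35 to 41 or 21 to 41, and no training with 3 or 10 min of object location training.

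Inhibitory interneurons make GABA from glutamate with glutamic acid decarboxylase, which exists in a form encoded by Gad1 and another encoded by Gad2, and they load it into vesicles with the transporter encoded by Slc32a1. Their classes are told apart by neuropeptides (Sst, Vip) and calcium-binding proteins (Pvalb). They are born in the ganglionic eminences, where Dlx factors set up their programme and Lhx6 specifies those of the medial eminence, and not in the dorsal forebrain from which Emx1-expressing excitatory neurons arise. Dentate granule cells, which are excitatory and of the Emx1 lineage, are known to express some Gad1.

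The members lie on several chromosomes of GRCm38, with 6 of them on chromosome 2, and Dlx1 and Dlx2 are neighbours there, at 71528113 to 71533981 and at 71543408 to 71546754. All 10 are annotated as protein-coding by GENCODE. RefSeq promoter windows (GRCm38.p6, 250 bases before to 50 after a start) were at hand for 9 of the 10 genes. The sequences from 150 bases before the start to the base before it are shown for the enzyme genes Gad1 and Gad2, whose levels part ways below, and for the peptide genes Sst and Vip, which hold motif matches close to the start. The windows are chr2:70561979-70562128 (Gad1, plus strand), chr2:22622177-22622326 (Gad2, plus), chr16:23890845-23890994 (Sst, minus) and chr10:5639068-5639217 (Vip, plus), written 5′ to 3′ along the gene, with motif matches in capitals.
Gad1: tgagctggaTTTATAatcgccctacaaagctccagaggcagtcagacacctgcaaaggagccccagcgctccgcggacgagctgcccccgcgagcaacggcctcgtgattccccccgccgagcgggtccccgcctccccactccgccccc
Gad2: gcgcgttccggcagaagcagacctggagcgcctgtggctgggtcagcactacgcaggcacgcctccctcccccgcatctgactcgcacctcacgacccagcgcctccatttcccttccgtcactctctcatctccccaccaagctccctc
Sst: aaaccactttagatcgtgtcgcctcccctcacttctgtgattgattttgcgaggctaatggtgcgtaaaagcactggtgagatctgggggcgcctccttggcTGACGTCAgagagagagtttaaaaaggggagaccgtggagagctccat
Vip: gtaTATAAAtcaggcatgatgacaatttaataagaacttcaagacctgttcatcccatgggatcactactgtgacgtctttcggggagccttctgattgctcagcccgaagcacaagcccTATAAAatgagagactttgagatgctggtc
The motifs searched, on both strands, were the cAMP response element TGACGTCA, the TATA box TATAAA and the homeodomain core TAATTA. They occur in 1.79%, 13.6% and 5.29% of the 32851 RefSeq promoter windows. The Sst window holds the cAMP response element 48 bases before the start, and Vip holds a TATA box 30 bases before it and 2 more upstream, 1 of them outside the stretch shown. Gad1 holds a TATA box on the opposite strand 141 bases before its RefSeq start, which differs from the GENCODE start of the gene at 70553072. Of the 3 windows of Lhx6, 1 holds a TATA box on the opposite strand 4 bases after its start. No window of the members holds the homeodomain core. The full windows of Gad1, Gad2 and Slc32a1 hold 21, 14 and 17 CpG sites and those of Dlx1 and Dlx2 hold 27 and 29, against 13 in Sst, 4 in Vip and a median of 7 over all windows. These matches describe the letters only.

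Deposited counts totalled 45895097 to 65767802 per TRAP library and 39856044 to 61636303 per wild-type column. Levels are given as CPM (a gene's count relative to its library total, on the usual CPM scale, with TMM factors over the 34793 genes found in both tables). The labelled cell type was checked first. The sum of 7 excitatory neuron markers lay between 6909 and 10743 CPM in all 20 TRAP libraries, and between 4451 and 9208 CPM in bulk. Slc17a7 and Camk2a make up most of this sum, and they did not move together. Slc17a7 was 2908 to 4655 CPM in TRAP and 1220 to 2205 CPM in bulk, while Camk2a was 2222 to 5578 CPM and 2493 to 6635 CPM. In the test against bulk described below, 3 of the 7 markers were higher in TRAP and 1 was lower. A pair of sedentary SIT libraries, NT7.2.3 and NT7.2.4, stood apart from the other 18. Transcripts of the mitochondrial genome took 8.64% and 9.64% of their counts, against 0.0704% to 0.523% in the 18. Their 4 microglia markers (Cx3cr1, P2ry12, Csf1r, Tmem119) summed to 144 and 151 CPM, against 1.44 to 8.47 CPM in the 18 and 156 to 222 CPM in bulk, and each marker was higher in both than in any of the 18. Their excitatory sums, 7772 and 6909 CPM, were at the lower end of the TRAP range, as were those of SIT libraries in general. No sedentary SIT library exceeded 7772 CPM, and SIT ELE libraries held 7459 to 8114 CPM. The study left these 2 libraries and the ELE library NT6.304 out of its SIT comparison, as identified here from the mean counts it lists, which matched in 633 of 633 genes for this choice and in at most 1 gene for any other of the 24 possible. The main tests of the members that include NT7.2.3 and NT7.2.4 are therefore also given without them, alone or together with NT6.304.

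The genes of GABA synthesis and transport were low in TRAP, but not equally low. Gad1 in the SIT libraries was 50.6, 60.7, 65.7 and 53.0 CPM in ELE mice and 294, 283, 54.7 and 54.1 CPM in sedentary mice. In separate isolations it was 36.3, 37.4 and 48.6 CPM on the left in ELE mice and 45.9, 36.0 and 33.5 CPM in sedentary mice, and on the right 38.7, 53.6 and 56.99 CPM against 36.0, 51.1 and 43.7 CPM. Apart from NT7.2.3 and NT7.2.4, at 294 and 283 CPM, Gad1 was thus even across libraries, the highest of the 18 being 1.96 times the lowest, and all 18 lay below the bulk range of 227 to 359 CPM. Gad2 was lower and far less even. SIT libraries held 7.19, 5.94, 35.9 and 9.51 CPM in ELE mice and 200.3, 189.7, 11.2 and 9.70 CPM in sedentary mice. The 12 separately isolated libraries held between 2.57 and 10.02 CPM. The value of 35.9 CPM belongs to NT6.304, the next highest of the 18 was 11.2 CPM, and the lowest bulk column held 87.2 CPM. Slc32a1, the vesicular GABA transporter, was 0.914 to 5.89 CPM in the 18 libraries, 81.9 and 73.2 CPM in NT7.2.3 and NT7.2.4, and 52.2 to 146 CPM in bulk.

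The class markers followed the low group. Sst, the peptide of dendrite-targeting interneurons, ran from 2.07 to 10.8 CPM with a median of 5.96 CPM in the 18 libraries, and reached 233 and 285 CPM in NT7.2.3 and NT7.2.4, above the bulk range of 103 to 215 CPM. Pvalb, which marks fast-spiking interneurons, was 0.289 to 1.89 CPM in the 18, and 22.4 and 34.3 CPM in NT7.2.3 and NT7.2.4. Bulk held 11.3 to 28.8 CPM of Pvalb. Vip, the peptide of interneurons that largely contact other interneurons, was the lowest of the 3, with 0.204 to 1.56 CPM in the 18 libraries. That is 11 to 77 counts per library, against 700 and 774 counts in NT7.2.3 and NT7.2.4 and 225 to 1007 counts in bulk. All 18 libraries were below every bulk column for each of the 3 markers.

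The developmental transcription factors were counted in few reads. Dlx1 was the most abundant of them in CPM, at 0.519 to 5.17 CPM in the 18 libraries, and in NT7.2.3 and NT7.2.4 it was 38.4 and 31.0 CPM, above the highest bulk column of 29.8 CPM. Dlx1 overlaps the antisense gene Dlx1as, and although counting used strand, the wild-type table uses other gene models, which can move its level between tables. Dlx2 was 0.173 to 2.48 CPM (8 to 121 counts) in the 18, 6.16 and 6.58 CPM in NT7.2.3 and NT7.2.4, and 4.09 to 15.1 CPM in bulk. Its 2 highest values, 2.48 and 1.75 CPM, belong to the sedentary SIT libraries NT6.305 and NT6.306. Dlx5 was at 0 to 43 counts in the 18 libraries and 227 counts in each of NT7.2.3 and NT7.2.4, whose 4.54 and 4.26 CPM lay within the bulk range of 1.58 to 10.4 CPM. A count of 0, seen in 2 right hippocampus libraries, allows up to 3 counts. Lhx6, the factor of the medial eminence, was 0.115 to 1.74 CPM in the 18 and 28.3 and 29.4 CPM in NT7.2.3 and NT7.2.4, against 9.91 to 23.5 CPM in bulk.

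**Figure D1:**
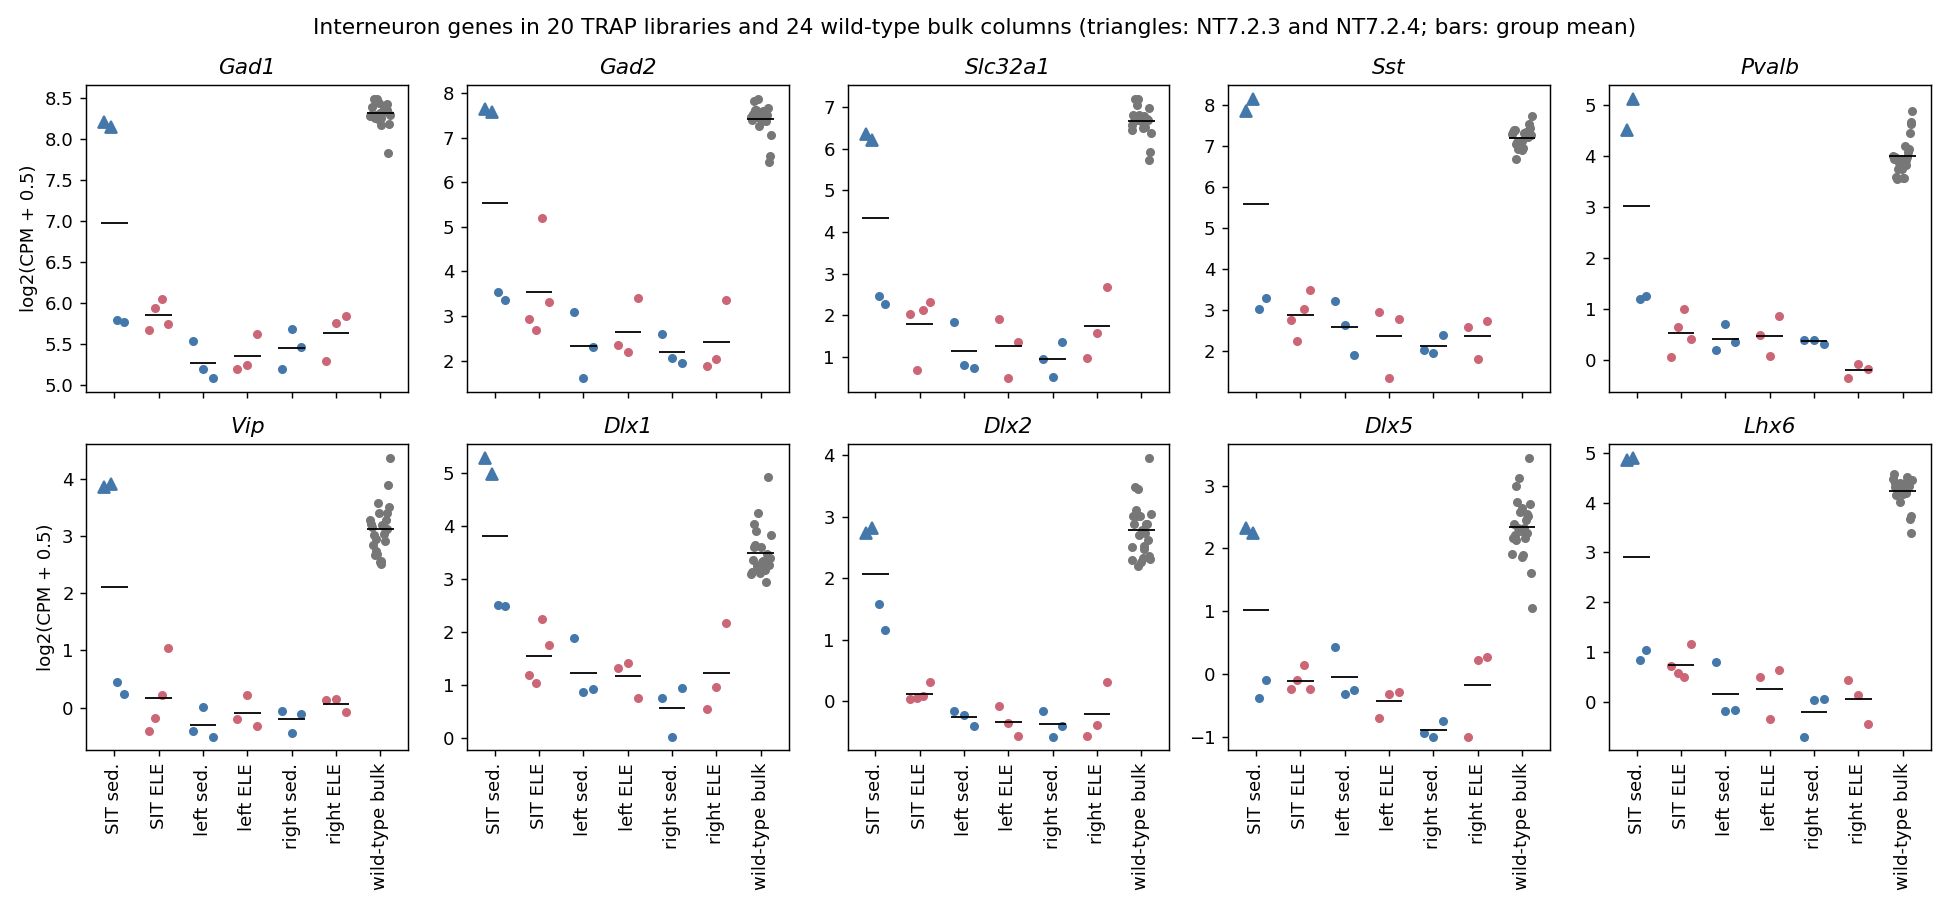
Each panel plots 1 gene as log2(CPM + 0.5) in every library, by group on the horizontal axis (sed., sedentary), with blue points for sedentary, red for ELE and grey for wild-type bulk. Triangles are NT7.2.3 and NT7.2.4, which sit at bulk level or above in every panel, and bars are group means.

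Compared per kilobase of exon, which allows levels of different genes to be set side by side, Sst and Gad1 led in the 18 libraries with medians of 8.27 and 6.49 CPM per kb. Gad2, Slc32a1 and Pvalb followed at 0.976, 0.808 and 0.79 CPM per kb, then Dlx1 at 0.308 CPM per kb, and Lhx6, Dlx5, Dlx2 and Vip lay between 0.133 and 0.183 CPM per kb. Neighbours in this order overlapped in range in every case. Gad1 nevertheless exceeded Gad2 in 18 of 18 libraries and Pvalb exceeded Dlx1 in 17 of 18, while Slc32a1 exceeded Pvalb, and Dlx5 exceeded Dlx2, in only 9 of 18. In bulk Sst stood far ahead at a median of 211 CPM per kb, and Gad1, Slc32a1 and Gad2 were close together at 41.7, 36.5 and 29.7 CPM per kb.

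The ratio of Gad1 to Gad2, each per kb of exon, separated the libraries. It had a median of 5.63 in the 18 TRAP libraries and reached 11.5, and it lay between 1.18 and 2.34 in the 24 bulk columns with a median of 1.39. It was 1.13 in NT7.2.3 and 1.15 in NT7.2.4. NT6.304 had a ratio of 1.41, in the bulk range, and the lowest ratio among the 17 others was 3.74, above the whole bulk range. NT6.304 came to its ratio in another way than NT7.2.3 and NT7.2.4, since its Gad1 and Slc32a1, at 65.7 and 3.87 CPM, were at TRAP level and its Gad2 alone among the 3 was raised. The ratio of Gad1 to Slc32a1 also separated NT7.2.3 and NT7.2.4, but not NT6.304, from the rest, with a median of 7.87 in the 18 libraries, 6.21 in NT6.304, 1.31 and 1.42 in NT7.2.3 and NT7.2.4, and 1.15 in bulk.

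**Figure D2:**
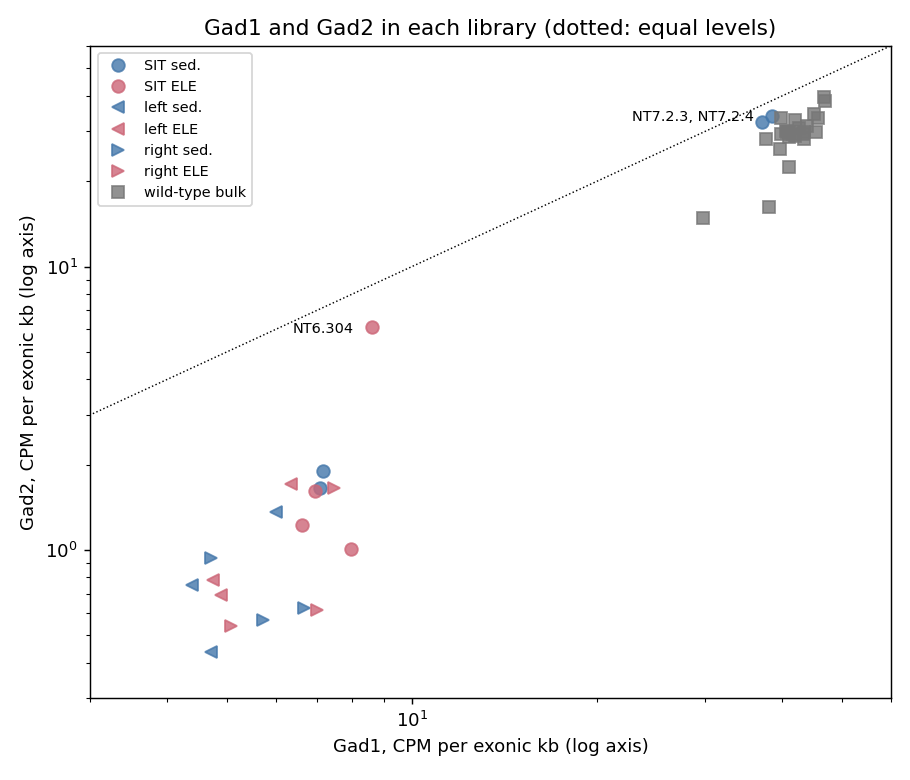
Gad2 is plotted against Gad1 for each of the 44 libraries, both in CPM per kb of exon on log axes, with the group shown by colour and shape and equal levels by the dotted line. NT7.2.3 and NT7.2.4 fall among the bulk columns, NT6.304 lies above the other TRAP libraries on the Gad2 axis, and the other 17 have Gad1 to Gad2 ratios of at least 3.74.

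The question of how far the capture leaves interneuron transcripts behind was put by comparing TRAP with the wild-type bulk reference. All 10 members were lower in TRAP when all 20 libraries were compared with the 24 bulk columns (edgeR quasi-likelihood test, adjusted p under 0.05 and log2 fold change under -0.39, rounded), against 31.0% of the 16722 genes tested. Without the 3 libraries that the study left out, all 10 were again lower, against 31.7% of 16766 genes, and the median log2 fold change of the members moved from -2.29 to -4.10, while that of all genes was -0.02 and -0.03. The strongest depletion was that of Slc32a1, with a log2 fold change of -5.28 ± 0.21 (SE) and an edgeR adjusted p of 4.44e-26. Gad2 followed at -4.77 ± 0.18 and Sst at -4.67 ± 0.16. Lhx6, Pvalb and Vip were at -4.48, -4.16 and -4.04, and Dlx5 and Dlx2 at -3.89 and -3.50. Depletion was weakest for Gad1, at -2.76 ± 0.07, and for Dlx1, at -2.35 ± 0.22. With all 20 libraries the edgeR estimates ran from -1.02 for Dlx1 to -3.33 for Slc32a1, and DESeq2 estimates from -2.05 to -3.62 for the same genes, with Sst, Pvalb and Vip at -3.37, -3.21 and -3.18, against -2.25, -2.11 and -2.18 in edgeR. As levels, the median of the 18 libraries was 15.6% of the bulk median for Gad1 and 17.3% for Dlx1, and between 2.21% (Slc32a1) and 7.18% (Dlx5) for the other 8.

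These values compare libraries that differ in genotype, RNA fraction, part of the hippocampus, training, table and gene models, and these cannot be told apart. In bulk RNA, moreover, fewer cells of a type and less RNA per cell cannot be told apart. The Dlx1 call was lost in sedentary TRAP libraries alone (-0.33, adjusted p = 0.501), a set that holds NT7.2.3 and NT7.2.4, and without the wild-type columns whose names start with LBN or HC (-0.88, adjusted p = 0.0502). The bulk reference is itself uneven. Its 4 columns named HC all had more Pvalb (21.5 to 28.8 CPM) than any of the other 20 (11.3 to 17.95 CPM), while HC2, HC3 and HC4 had less Gad2 and Slc32a1, and HC1, HC2 and HC3 less Lhx6, than any of the 20. Column HC1 alone had the highest Dlx1, Dlx2 and Dlx5 of all 24, at 29.8, 15.1 and 10.4 CPM.

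**Figure D3:**
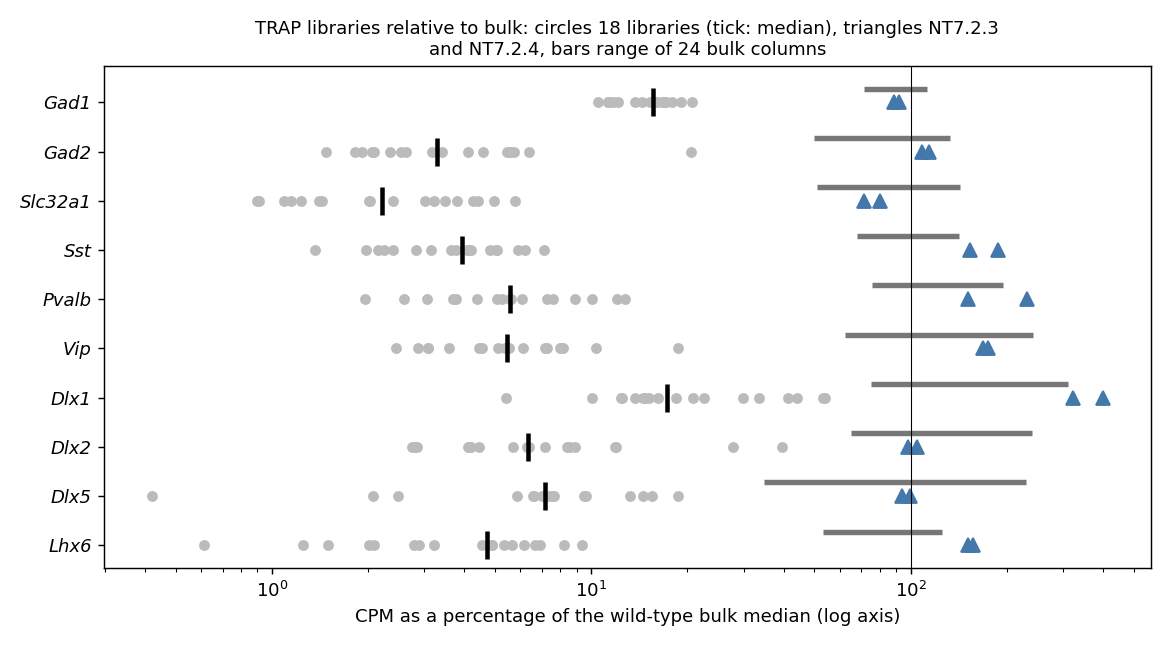
Levels in TRAP are plotted as a percentage of the wild-type bulk median on a log axis, with circles for 18 libraries and a tick at their median, triangles for NT7.2.3 and NT7.2.4, and grey bars for the range of the 24 bulk columns. Medians run from 2.21% for Slc32a1 to 17.3% for Dlx1, triangles lie near or above 100%, and 2 libraries with a Dlx5 count of 0 cannot be drawn on this axis.

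NT7.2.3 and NT7.2.4 did not resemble bulk to the same degree in every gene. As percentages of the bulk median they reached 92.2% and 88.8% for Gad1, 80.1% and 71.6% for Slc32a1, and 97.9% and 105% for Dlx2. Sst was at 154% and 188%, Pvalb at 151% and 231%, Lhx6 at 151% and 157%, and Dlx1 at 400.5% and 323%. Markers of other cell types also differed in how near they came to bulk. The microglia sum was below the whole bulk range, the endothelial sum of 10.9 and 10.7 CPM was below the bulk range of 46.4 to 116 CPM and above 17 of the 18 other TRAP libraries (0.835 to 3.14 CPM, with TG7.3.3 at 22.2 CPM), and the oligodendrocyte sum of 3796 and 4249 CPM lay between the 18 libraries (1939 to 3290 CPM) and bulk (5123 to 12639 CPM). Striatal projection neuron markers summed to 189 and 167 CPM and astrocyte markers to 882 and 834 CPM, inside the ranges of the 18 libraries (151 to 935 and 596 to 1349 CPM). Thalamic markers reached 102 and 85.6 CPM, above the 18 libraries (40.4 to 74.9 CPM), and choroid plexus markers varied from 18.2 to 1364 CPM among the 18 and were 554 and 1113 CPM. The part of any of these in the interneuron values was not tested.

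**Figure D4:**
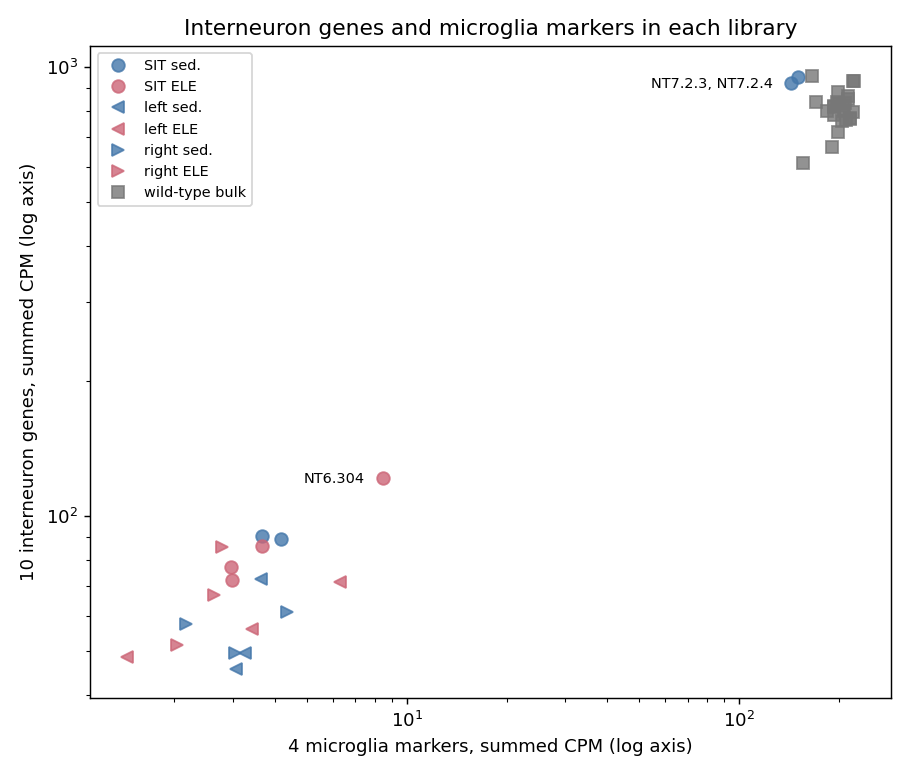
The summed CPM of the 10 interneuron genes is plotted against that of 4 microglia markers for each of the 44 libraries, on log axes, with groups by colour and shape. NT7.2.3 (924 and 144 CPM) and NT7.2.4 (952 and 151 CPM) lie beside the bulk columns, and the 18 other TRAP libraries have member sums of 45.8 to 122 CPM.

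Whether ELE changed these genes was asked in all 20 libraries and within each isolation. Genes were called by the study's rule. A call needed an unadjusted p under 0.05 and a log2 fold change past 0.39 (rounded) in either direction. Over all 20 libraries, with isolation in the model, 2 of 10 members were called, both lower in ELE, against 4.0% of 18810 genes tested. They were Pvalb (-1.93 ± 0.65, p = 0.00766) and Dlx2 (-1.09 ± 0.49, p = 0.0382) in edgeR's quasi-likelihood test, and their adjusted p-values were 0.419 and 0.485. Pvalb was called whichever 1 library was left out, but each such fit keeps NT7.2.3, NT7.2.4 or both. DESeq2 and the fit with no filter on low counts also called Sst (-1.49, p = 0.0255, and -1.58, p = 0.023). With a block for mouse sets (mice whose numbers are alike but for the last part, such as TG9.1), Pvalb was called at -0.55 (p = 0.0452) and Dlx2 was not (-0.51, p = 0.171), against 3.62% of 20957 genes. Dlx2 was also lost without NT6.303, NT6.304, TG7.4.1, TG7.4.2, NT7.2.3, NT7.2.4 or TG9.1.3. Without NT7.2.3 and NT7.2.4 only Pvalb was called, at -0.60 ± 0.27 (p = 0.0362, adjusted p = 0.621), against 2.51% of 18921 genes. Pvalb had 18 to 92 counts per library there, and libraries were not left out of this fit 1 at a time. The Dlx2 estimate was then -0.52 ± 0.39 (p = 0.195). The median of the members moved from -1.07 to 0.15, and 10 of 10 negative estimates became 4 of 10. No member passed an edgeR adjusted p of 0.05 in any exercise comparison, and among the 5 comparisons of ELE with sedentary mice fitted with DESeq2, members did so only in that of all 8 SIT libraries. By the same rule over all 20 libraries, 5 of 6 choroid plexus markers, 3 of 3 endothelial markers and 1 of 4 microglia markers were called lower in ELE, and over the 18 libraries 4, 0 and 1 were. Their part in the Pvalb value was not tested.

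All 8 SIT libraries together called all 10 members lower in ELE, against 7.70% of 17531 genes, with a median of -3.19 and edgeR adjusted p-values from 0.403 to 0.480. DESeq2 also called all 10, with adjusted p-values from 3.74e-05 for Dlx2 to 0.266 for Gad1, and those of Dlx2, Pvalb (0.0167), Sst and Dlx1 (0.0313 each), Slc32a1 (0.0419) and Lhx6 (0.0423) were under 0.05. The edgeR count rested on NT7.2.3 and NT7.2.4. In the same fit 4 of 4 microglia, 3 of 3 endothelial, 4 of 6 choroid plexus and 2 of 4 oligodendrocyte markers were lower. Without NT7.2.3 and NT7.2.4 these counts were 0, 0, 1 and 0. With the block for mouse sets they were 0, 0, 2 and 0, and 1 microglia marker was higher. Without that pair of libraries Dlx1 (-0.98, p = 0.0439) and Dlx2 (-1.83, p = 0.0033) were called and the other 8 were not, against 2.75% of 18556 genes, and among the 4 mice numbered NT6 alone, 2 of each group, only Dlx2 was (-1.96, p = 0.00968), against 6.65% of 17738 genes. With the block Dlx2 was the 1 member called (-1.95, p = 0.000985), against 8.28% of 19544 genes. Only the NT6 set holds both ELE and sedentary mice in SIT, so the blocked estimate comes from the same 4 mice and is no second test. The Gad2 estimate was 0.49 without the pair and 1.05 in the NT6 mice, and that of Gad1 was 0.076 and 0.090.

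In the 5 SIT libraries that the study kept (3 ELE, 2 sedentary), 3 of 10 members were called, all lower in ELE, against 3.65% of 18238 genes. The ELE libraries were NT6.303, TG7.4.1 and TG7.4.2, and the sedentary ones NT6.305 and NT6.306. The set TG7.4 thus had no sedentary mouse, exercise and mouse set cannot be fully told apart, and no block was fitted here. Dlx2 was 0.529, 0.538 and 0.75 CPM in ELE mice and 2.48 and 1.75 CPM in sedentary mice (-1.81 ± 0.52, p = 0.00603, edgeR adjusted p = 0.905). Dlx1 was 1.77, 1.55 and 2.86 CPM against 5.17 and 5.09 CPM (-1.32 ± 0.34, p = 0.00297, adjusted p = 0.905). Pvalb was 0.547, 1.08 and 0.831 CPM against 1.79 and 1.89 CPM (-1.17 ± 0.52, p = 0.049, adjusted p = 0.906). The sedentary libraries were the higher ones for all 3 genes, without overlap, but these genes were picked by their calls in the same libraries. How many of all genes separate in this way was not counted. Of the choroid plexus markers 3 of 6 were called lower in the same 5 libraries, and none of the 4 microglia, 3 endothelial or 4 oligodendrocyte markers was. Gad1, whose estimate was 0.00 ± 0.12, Sst, Vip, Dlx5 and Lhx6 were within 0.27 of 0, and Gad2 and Slc32a1 were at -0.47 ± 0.24 and -0.62 ± 0.48. The Dlx2 call was lost without NT6.305 and the Pvalb call without NT6.303, TG7.4.2, NT6.305 or NT6.306, each left out singly. Pvalb was not called by DESeq2 either (p = 0.0532), nor with no filter on low counts (p = 0.0641). When a sedentary library is left out, the lone one is assumed to vary like the ELE libraries. NT6.304, the ELE library outside this comparison, held 4.23 CPM of Dlx1, nearer to the sedentary values, and 0.559 CPM of Dlx2, among the ELE values.

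In the left hippocampus no member was called in the 6 libraries, at an unadjusted p under 0.05 and by DESeq2 alike, against 2.07% of 17750 genes, and none with the block for mouse sets, against 1.83% of 18579. Estimates ran from -1.01 ± 0.69 for Dlx5 to 0.49 ± 0.62 for Vip. The right hippocampus called 1 of the 9 members tested, Slc32a1, higher in ELE (1.15 ± 0.50, p = 0.0422, edgeR adjusted p = 0.9998), against 1.97% of 17570 genes. Its values were 1.46, 2.45 and 5.89 CPM in ELE mice and 1.43, 0.931 and 2.07 CPM in sedentary mice, so the groups overlapped, and the call was lost without TG7.3.1, TG9.2.3 or TG9.1.1. Pvalb on the right was 0.289, 0.452 and 0.384 CPM in ELE mice and 0.822, 0.823 and 0.753 CPM in sedentary mice. These groups did not overlap, but the estimate of -1.07 ± 0.52 (p = 0.0675) missed the threshold, and the share of all genes without overlap was not counted. Dlx5 had too few counts on the right to pass the filter. With no filter on low counts Slc32a1, Dlx1 (1.04, p = 0.0295) and Dlx5 (3.55, p = 0.0112) were called higher, and with the block the same 3 genes were, Dlx1 at 0.91 (p = 0.0456) and Dlx5 at 3.64 (p = 0.0446), against 1.77% of 18435 genes. The sets TG7.3, TG9.1 and TG9.2 each hold 1 ELE and 1 sedentary mouse of each hemisphere. On the right Pvalb was lower in the ELE mouse of 3 of 3 sets, and Slc32a1, Dlx1 and Vip were higher in 3 of 3. The share of all genes with the same direction in every set was not counted. These Dlx5 estimates rest on counts of 0, 35 and 33 against 1, 0 and 4. All 5 choroid plexus markers that could be tested on the right were called lower in ELE, as were 1 of 3 endothelial and 1 of 4 microglia markers. With the block 6 of 6 choroid plexus markers were lower and no endothelial or microglia marker was called. On the left no marker of these lists was called.

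**Figure D5:**
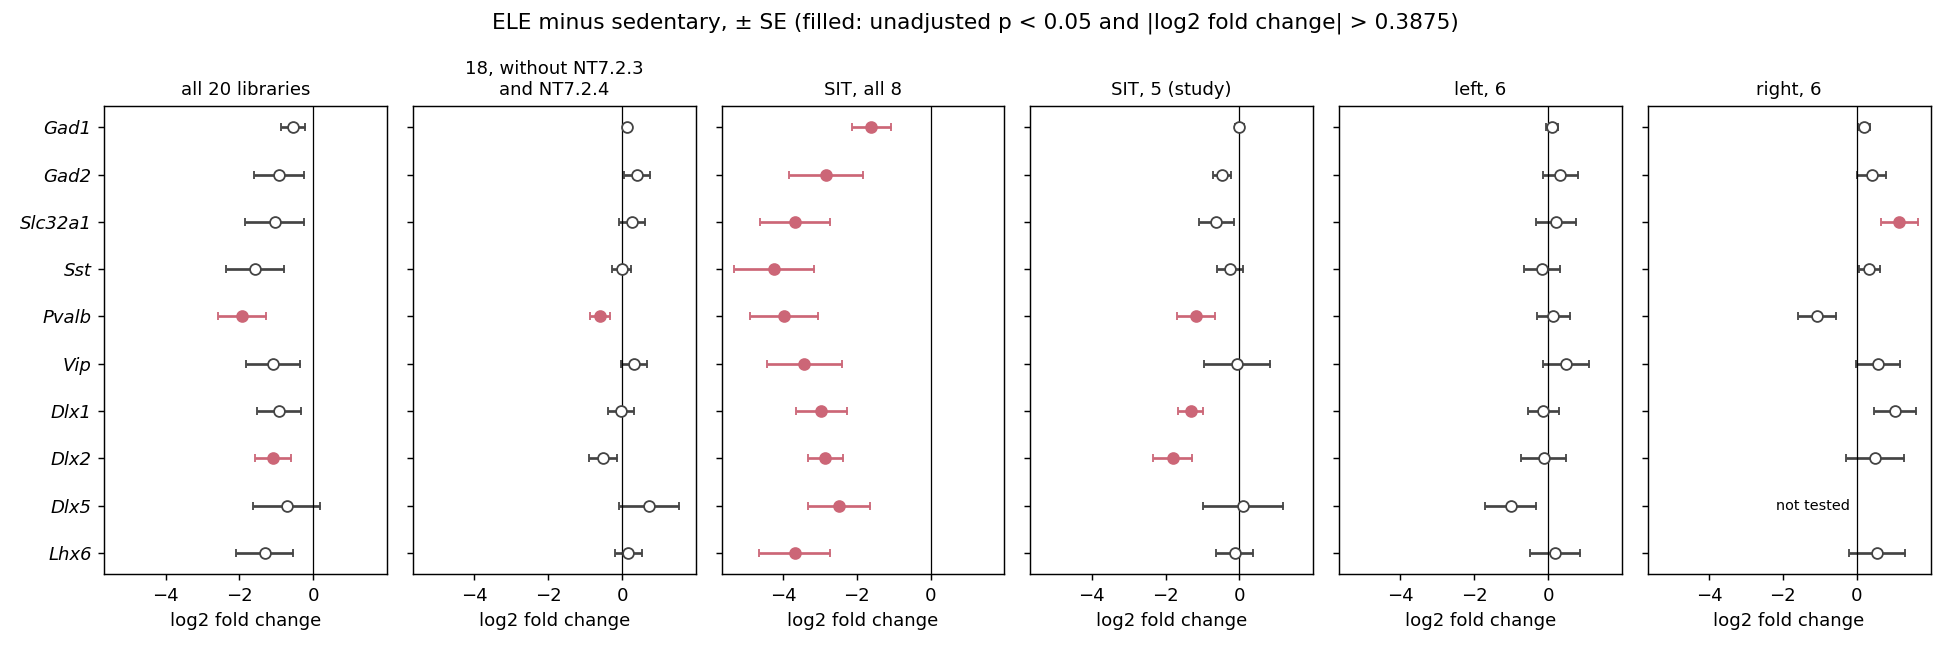
Log2 fold changes of ELE against sedentary are plotted with their SE for the 10 members in 6 comparisons, filled where the gene was called. The 10 negative values with all 8 SIT libraries contrast with the study's 5 SIT libraries, where 3 members are called, and with the left hippocampus, where none is.

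An interaction between exercise and hemisphere was called for 1 of 10 members, Dlx5 (4.56 ± 1.81, p = 0.0252, edgeR adjusted p = 0.99996), against 2.20% of 18810 genes, and so it was with the block (4.57, p = 0.0388). It rests on counts of 7, 16 and 16 in ELE and 43, 16 and 18 in sedentary libraries on the left, and of 0, 35 and 33 against 1, 0 and 4 on the right, and an estimate over counts at 0 depends on the model's prior. The call was lost when TG9.1.2 on the left, or TG9.2.1, TG7.3.1, TG9.2.3 or TG9.1.1 on the right, was left out.

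Of 30 further genes linked to inhibitory neurons, 29 could be tested against bulk. Over all 20 libraries 22 were lower and 1 higher in TRAP, with a median of -1.65, against 31.0% of all genes lower. Without the study's 3 left-out libraries the counts were the same and the median was -1.95, against 31.7% of all genes lower. Nkx2-1, a medial eminence factor, Crhbp, which binds corticotropin-releasing hormone, and Sp8, a factor of the caudal and lateral eminences, had the lowest estimates, at -4.63, -2.89 and -2.85, although Nkx2-1 and Sp8 were at most 0.103 and 0.787 CPM in the 18 libraries. Nkx2-1 had a median of 0 there, so its estimate depends on the model's prior. Among the genes called, the highest estimates belonged to Cck, a peptide that pyramidal cells also make, at 0.56 ± 0.06, Abat, the GABA-degrading enzyme, at -0.44 ± 0.06, and Lamp5 at -0.53 ± 0.09. Without the 3 libraries Crhbp was at -5.93 and Sp8 at -3.27. In NT7.2.3 and NT7.2.4, 21 of the 30 were higher than in any of the 18 other libraries, and the share of all genes that were so was not counted.

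Under ELE, 8 of the 28 further genes tested were called lower over all 20 libraries, against 4.0% of all genes called in either direction. In the 8 SIT libraries 20 were lower, against 7.70%. Without NT7.2.3 and NT7.2.4 none was called over 18 libraries, against 2.51%, and 2 were lower in SIT, against 2.75%. With the block for mouse sets, none was lower and 1 higher over all 20 libraries, against 3.62%. In SIT 4 were then lower and 1 higher, against 8.28%. Erbb4, the neuregulin receptor of interneurons, was called in 3 of the 5 comparisons, including the left hippocampus (-0.42 ± 0.18, p = 0.0475, edgeR adjusted p = 0.96). Npy was called higher on the left, where TG9.1.4 alone held 315 CPM, and 2.07% of all genes were called. With the block for mouse sets none of the 26 further genes tested on the left was called, so both left calls were lost. No further gene was called among the 26 tested on the right. Calb2 (calretinin) was the only one of 28 called in the study's 5 SIT libraries, at -0.59 ± 0.15 (p = 0.00268), against 3.65% of all genes. It was also called in all 8 (-0.39 ± 0.16). Reln, Ndnf, Nxph1, Maf and Adarb2 were called lower over all 20 and over all 8 SIT libraries, with all-20 estimates between -0.54 and -1.37, and over the 18 libraries theirs lay between -0.16 and -0.25.

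Among the 18 libraries, members varied together to a modest degree. Over the 45 pairs of members the median Pearson r of log2(CPM + 0.5) was 0.47 and the median Spearman rho 0.48, from 0.06 for Pvalb with Dlx5 to 0.82 for Dlx1 with Dlx2. Over the 17 libraries that also leave out NT6.304, the median r was 0.46. In the 24 bulk columns the median r was 0.09, with Gad2 and Slc32a1 at 0.94 and Gad2 and Pvalb at -0.66. These are descriptions, since the values share libraries and depth, and no r between members is given over all 20, which fall into 2 separate clusters. The non-member genes ranked most like Gad1, Gad2 and Slc32a1 over the 20 libraries were C1qc, Tmem119, Ly86, Ctss and Crhbp. That ranking rests on NT7.2.3 and NT7.2.4, since 53 genes had an r above 0.9 over the 20 libraries and 0 had over the 18. Of these 5, chosen among 13597 genes that averaged 1 CPM or more, the first 4 are known from microglia. Their r with the mean of the 3 GABA genes over the 18 libraries was 0.88, 0.78, 0.67, 0.62 and 0.63, given as a description, since the 18 were among the libraries that chose them. The 4 microglia markers summed to 1.44 to 8.47 CPM in these 18.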

How the data were processed

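TRAP-seq was available for 20 libraries of single mice and bulk RNA-seq for 24 wild-type columns. The authors made libraries with a directional kit, aligned reads to GRCm38.p6 with STAR 2.7.3a, removed duplicates with Picard 1.87 and counted stranded read pairs per gene with summarizeOverlaps in R 4.1.0. The counts were deposited unnormalized. Columns of the TRAP table carry mouse numbers, and the group of each was taken from the study's list of mice, since the sample titles carry no such number. The reference columns could be placed in no single sample, and 2 are named LBN and 4 HC. Columns of the deposited comparisons hold fold changes and p-values and were not used.

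Members and gene lists were chosen with earlier results of these data known. Members are named throughout. Of 30 further inhibitory genes, those called in 2 or more exercise comparisons, and those at the 3 highest and 3 lowest called log2 fold changes against bulk, are named, except for some that are not reported here. The 5 genes with the highest Pearson correlation with the mean z-score of Gad1, Gad2 and Slc32a1 over the 20 libraries are named too. Counts were fitted over all genes with edgeR 4.0.16 in R 4.3.3 (quasi-likelihood, TMM factors, filterByExpr, two-sided, Benjamini-Hochberg adjustment), with isolation as a covariate where isolations were joined. SE was taken as the log2 fold change divided by the square root of F. Alternatives were DESeq2 1.42.0, median-of-ratios factors, no filter on low counts, blocks by mouse number, and the omission of libraries. A pseudocount of 0.5 was used for log2 CPM. The fitting steps were tested on simulated data. Pairs of replicates differed by far more than sampling noise in all 24 pairs compared (chi-square per gene 18.9 to 423). Depth limits the rarest genes, for which a count of 0 allows up to 3, and these limits cover counting error only.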

Additional observations from a re-analysis of the deposited data

Results flagged for a closer look

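Gad2 in the SIT ELE library NT6.304 was 35.9 CPM, against 7.19, 5.94 and 9.51 CPM in the other 3 of its group, a gap of 0.881 of the group's range. Npy, Penk and Ppp1r1b were 827, 727 and 96.9 CPM in the same library, whose striatal marker sum of 935 CPM was the highest of the 18, and their part in the Gad2 value was not tested. Dlx2 in the SIT ELE library TG7.4.2 was 0.75 CPM, against 0.529, 0.538 and 0.559 CPM in the others, a gap of 0.863 of the range, with 37 counts against 27 to 29. Of the 20 groups tested in this way, chance flags about 1 in 20. Dlx5 was flagged for its exercise by hemisphere interaction of 4.56 on the log2 scale (p = 0.0252, edgeR adjusted p = 0.99996), on counts of 0 to 43. That call did not survive the omission of single libraries named above, so a difference between hemispheres is not established.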

How the results depend on the processing

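The replicate numbers of the sample titles could not be used as a block, since the columns do not carry them. The mouse numbers gave a replicate block by mouse set (NT6, NT7.2, TG7.3, TG7.4, TG9.1 and TG9.2) and a coarser block by their first part (NT6, NT7, TG7 and TG9), the same in SIT. What a set shares is not stated. In SIT only NT6 holds both ELE and sedentary mice, so blocked estimates there come from the NT6 mice. In ELE and sedentary mice of a set, deviations from group means over 13606 genes had an r of 0.28, 0.024 and 0.12 on the left and 0.29, -0.096 and -0.13 on the right (TG7.3, TG9.1 and TG9.2), so the sets did not deviate together throughout. The set block, the omission of NT7.2.3 and NT7.2.4 alone, and that of the LBN and HC columns were chosen after seeing the data. Where a result changed below, the cause was not tested beyond the libraries named. All 10 members stayed lower in TRAP than in bulk under DESeq2, median-of-ratios factors, no filter, and without mitochondrial genes, the study's 3 libraries or NT7.2.3 and NT7.2.4. With sedentary TRAP libraries only, or without the LBN and HC columns, Dlx1 was not called.

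With no filter on low counts, genes called numbered 1997 over all 20 libraries, 2165 in all 8 SIT libraries, 691 on the left, 715 on the right and 1041 for the interaction, against 753, 1350, 367, 347 and 414, and genes lower against bulk numbered 7812 against 5188. Members called on the right were then 3 (Slc32a1, Dlx1 and Dlx5). With the replicate block by mouse set, members called were 1 of 759 genes over all 20 libraries (Pvalb, with Dlx2 lost), 1 of 1619 in all 8 SIT libraries (Dlx2), 0 of 340 on the left, 3 of 326 on the right (Slc32a1, Dlx1 and Dlx5) and 1 of 433 for the interaction (Dlx5). With the first-part block they were 1 of 743 over all 20 libraries (Pvalb), 1 of 1619 in SIT (Dlx2), 0 of 366 on the left and 2 of 368 on the right (Slc32a1 and Dlx5). Members called over all 20 libraries were 1 of 436 genes without the study's 3 libraries and 1 of 475 without NT7.2.3 and NT7.2.4. In all 8 SIT libraries they were 2 of 511 genes without NT7.2.3 and NT7.2.4, and 1 of 1179 with only the 4 mice numbered NT6.

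Directions reversed in these log2 fold changes of ELE. Over all 20 libraries with the set block, Gad1 was 0.15, Gad2 0.55, Slc32a1 0.31, Vip 0.20, Dlx1 0.044, Dlx5 0.71 and Lhx6 0.18, and with the first-part block 0.14, 0.57, 0.30, 0.21, 0.053, 0.75 and 0.14. Without the study's 3 libraries Gad1 was 0.11, Gad2 0.12, Slc32a1 0.28, Vip 0.35, Dlx5 0.66 and Lhx6 0.22. Without NT7.2.3 and NT7.2.4 these 6 were 0.13, 0.41, 0.28, 0.32, 0.72 and 0.17. In all 8 SIT libraries, Gad1, Gad2 and Dlx5 were 0.10, 1.06 and 0.44 with either block, 0.090, 1.05 and 0.43 in the NT6 mice, and 0.076, 0.49 and 0.30 without NT7.2.3 and NT7.2.4.

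Leaving out 1 library at a time gave 1 to 4 members and 553 to 973 genes called over all 20 libraries, 1 to 4 and 355 to 1086 in the study's 5 SIT libraries, 9 to 10 and 731 to 1971 in all 8, 0 and 220 to 945 on the left, 0 to 3 and 308 to 643 on the right, and 0 to 2 and 354 to 718 for the interaction. Pvalb was called over all 20 libraries in every such fit, each of which keeps NT7.2.3, NT7.2.4 or both. Dlx2 was lost without any 1 of 7 SIT or right libraries. Estimates that changed sign ranged, in the study's 5 libraries, from -1.30 to 0.34 for Vip, -0.068 to 0.057 for Gad1, -0.71 to 0.0039 for Sst, -0.21 to 0.49 for Dlx5 and -0.42 to 0.034 for Lhx6. On the left they ranged from -0.30 to 0.81 for Slc32a1, -0.49 to 0.26 for Sst, -0.20 to 0.40 for Pvalb, -0.36 to 0.42 for Dlx1, -0.54 to 0.14 for Dlx2, -0.048 to 0.25 for Gad1, -0.19 to 0.85 for Gad2 and -0.13 to 0.99 for Lhx6, and on the right from -0.28 to 0.67 for Gad2 and -0.32 to 0.87 for Dlx2.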

Other observations

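Npy, a peptide of many interneurons that was not among the 10 genes, was 315 CPM in the left ELE library TG9.1.4 and 84.0 CPM in the right sedentary library TG9.1.1, and Penk was 170 and 85.5 CPM in these libraries. Dlx1 exceeded Dlx2 per kb of exon in all 18 TRAP libraries, with ratios of 1.10 to 4.31, and also in NT7.2.3 (3.30) and NT7.2.4 (2.49), while the bulk ratio had a median of 0.948 and a range of 0.551 to 1.18. Gene models differ between the tables, and their part in this ratio was not tested.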
